A study of Mus musculus with 8 samples.

Results

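Cytosolic ribosomal protein genes are those whose names on the array are Rpl or Rps and a number with at most 1 letter, together with Rplp0, Rplp1, Rplp2 and Rpsa. Kinase genes named Rps6k and names ending in -ps were left out. The rule found 80 gene names with 186 probes among the 55681 probes of the array. Of these probes, 176 of 77 genes were well above background in nerve on at least 4 of 8 arrays and were kept. Over the whole array 19838 probes were kept by the same filter.

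The arrays hold sciatic nerve RNA of male mice aged 60 days. The wild-type group had 4 mice and the SOD1G93A group had 4 mice carrying a mutant human SOD1 transgene, a model of amyotrophic lateral sclerosis. The series title calls these mice presymptomatic. Nerve RNA was labelled with Cy3 on every array. Cy5 marked 1 reference pool, made from the heart, liver and kidney of neonatal wild-type and SOD1G93A animals. The labels used here do not name the promoter, the line or its copy number. A value below is a log2 ratio of nerve over reference, so 1 is a 2-fold excess in nerve, and a difference is SOD1G93A minus wild-type.

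Ribosomal proteins clothe the ribosomal RNA of the small (Rps) and large (Rpl) subunits. Each subunit needs its proteins in fixed proportion, and their messenger RNAs are known for a pyrimidine tract at the 5′ end through which growth signalling by mTOR controls their translation. Schwann cells and other cells of a nerve carry ribosomes, as axons do. Processed copies of these genes are scattered over the genome, so a probe can match several places.

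The pyrimidine tract can be seen at the start of several members. RefSeq windows from 250 bases before to 50 after the annotated start (GRCm38.p6) were matched by symbol for 59 of the 80 genes, in 71 windows. The letters CTTTC on the gene's strand within 15 bases of the start were found in 17 of the 71 member windows (23.9%), and in 4.05% of all 32851 windows. The windows below run from 15 bases before the start to 15 bases after it, for 4 of the genes named in the results, with CTTTC in capitals.
Rplp2, chr7:141447636-141447665, plus strand: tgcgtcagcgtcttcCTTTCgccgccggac
Rpl38, chr11:114668565-114668594, plus strand: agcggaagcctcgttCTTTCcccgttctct
Rpl28, chr7:4792950-4792979, plus strand: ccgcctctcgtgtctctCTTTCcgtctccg
Rpl15, chr14:18270972-18271001, minus strand: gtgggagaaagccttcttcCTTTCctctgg
A 2nd set of letters, CCGGAAG on either strand anywhere in the 300 bases, was found in 25 of the 71 member windows (35.2%) and in 8.86% of all windows. It is the core bound by ETS-family factors. A match describes the letters only.

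Members lay a little lower in nerve than in the reference and close to each other. The median of the 176 probes was -0.31, and that of all kept probes was 0.09. No member reached 1 or more, where 13.4% of all kept probes did, and 6 members were at -1 or less, where 8.68% of all did. The SD of the probe means was 0.39 among members and 1.02 among all kept probes. Below 0 on all 8 arrays were 110 members, against 30.7% of all, and above 0 on all 8 were 16 members, against 39.3% of all. The reference is 1 pool without a dye swap, so this comparison has no test, and a dye effect cannot be told apart from a difference between tissues. In whole tissue, fewer cells of a type and less RNA per cell cannot be told apart either.

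**Figure D1:**
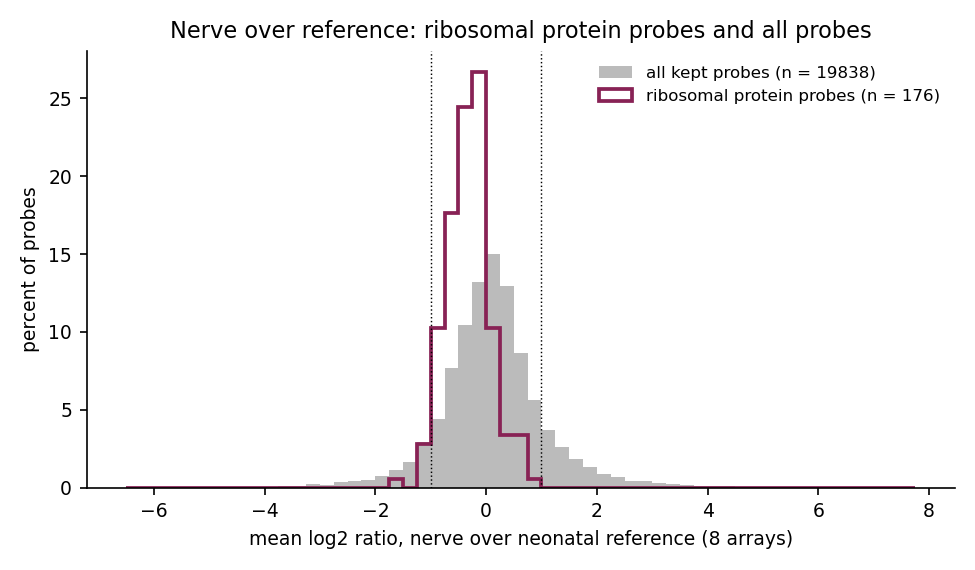
Mean log2 ratio of nerve over reference over 8 arrays (x axis, bins of 0.25) against the percent of probes (y axis), for all 19838 kept probes (grey) and the 176 ribosomal protein probes (outline). Dotted lines mark -1 and 1, and the members lie between -1.66 and 0.93.

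The size of that shift depended on the dye correction, and its sign did not. Members made up 103 of the 557 brightest probes (18.5% of the brightest 1% of the array). Their median was -0.19 with Agilent's own processed signals and -0.67 with median centring in place of loess, where 33 members rather than 6 were at -1 or less.

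Both subunits had nearly the same median. The 110 large-subunit probes of 45 genes had a median of -0.33, and the 66 small-subunit probes of 32 genes a median of -0.29. On single arrays the median of all members lay between -0.41, on wild-type replicate 3, and -0.27, on SOD1G93A replicate 3. The 8 medians were -0.29, -0.29, -0.41 and -0.31 in wild-type replicates 1 to 4 and -0.35, -0.29, -0.27 and -0.31 in SOD1G93A replicates 1 to 4. The groups overlapped. Wild-type replicate 3 held the lowest value of 75 of the 176 probes.

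**Figure D2:**
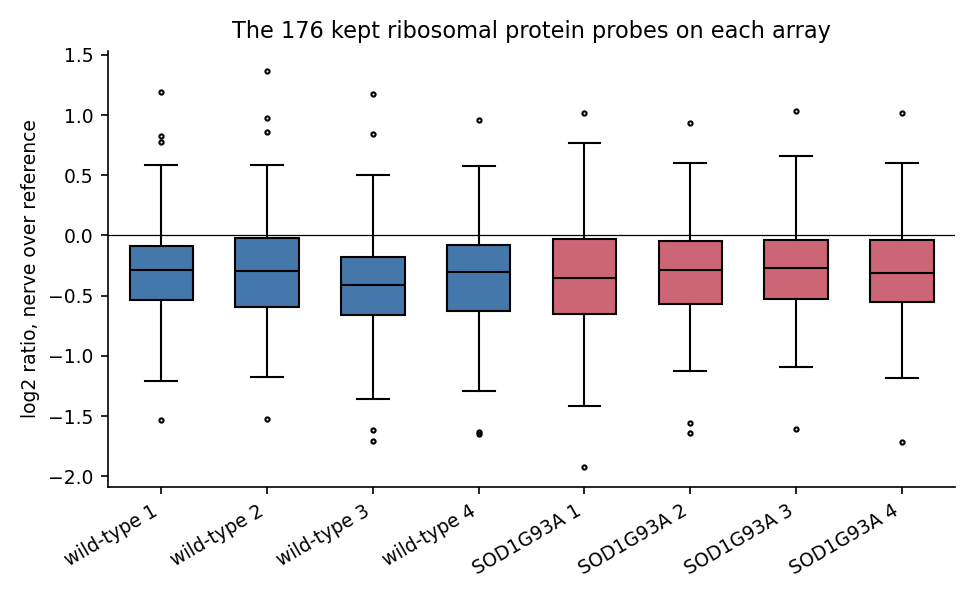
Log2 ratio of nerve over reference (y axis) of the 176 kept ribosomal protein probes on each of the 8 arrays (x axis). Boxes span the quartiles with the median as a line, whiskers reach to 1.5 box lengths and dots lie beyond, and the medians range from -0.41 to -0.27.

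The lowest member was Rps7, a small-subunit protein that also binds Mdm2. Its probe lies in coding sequence at chr12:29319087-29319146 (mm9, minus strand), and is shown because it lies farthest from the rest.
Rps7 (A_55_P2055411): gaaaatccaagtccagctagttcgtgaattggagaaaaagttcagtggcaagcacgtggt
Rps7 read -1.54, -1.53, -1.71 and -1.65 in wild-type replicates 1 to 4 and -1.92, -1.64, -1.61 and -1.71 in SOD1G93A replicates 1 to 4. It was low on every array, and the genotypes overlapped. Next came Rps19, the gene most often mutated in Diamond-Blackfan anaemia, a failure of red cell production. Rps19 read -0.90, -1.14, -1.36 and -1.29 in wild-type and -1.42, -1.13, -1.09 and -1.14 in SOD1G93A nerves. Each Rps19 value but that of wild-type replicate 1 was below -1.

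Rpl39, a small protein at the end of the exit tunnel, had 3 kept probes on chromosome X. Its lowest probe, A_55_P2182106, had a mean of -1.15 ± 0.05 in wild-type and -1.02 ± 0.07 in SOD1G93A nerves (SD, n = 4 each), and the other Rpl39 probes had means of -0.55 and -0.61 over 8 arrays. Rps27a, made as a fusion to ubiquitin, had means of -1.07 and -1.06 at its 2 kept probes. Rps14, another small-subunit protein, was the remaining member past -1, with a mean of -1.04. A list of 18 member genes known to be mutated in Diamond-Blackfan anaemia had 40 probes. Their median was -0.56, and 2 of them were at -1 or less.

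Of the members above 0, Rpl27a, a large-subunit protein, was highest. Its probe A_51_P132459 (chr7:116665756-116665815, plus strand) read 0.77, 0.86, 0.84 and 0.96 in wild-type and 1.02, 0.94, 1.04 and 1.02 in SOD1G93A nerves. The other Rpl27a probes had means of -0.18, -0.37 and -0.42, so the gene's own probes pointed both ways. Rpl10, which shapes the site where tRNAs bind, had 2 probes with means of 0.53 and 0.51 and another at 0.04. Rps29, a small zinc-binding protein, reached 0.52 at A_55_P1983149. Rpl3, which lies near the peptidyl transferase centre, had means of 0.50 and 0.33. The Rplp1 probe A_55_P1995126, placed on chromosome X, had a mean of 0.57 and the Rplp1 probe on chromosome 9 had a mean of 0.06.

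The stalk that recruits elongation factors is formed by Rplp0, Rplp1 and Rplp2. Rplp0 had means of -0.40, -0.46 and -0.22 at its 3 probes, and Rplp2 a mean of -0.07. Rpl5 and Rpl11 carry the 5S ribosomal RNA and bind Mdm2. Rpl5 had a mean of -0.79 and Rpl11 had means of -0.26, -0.32 and -0.47. Rpsa, also known as the laminin receptor, had means of -0.28, -0.27 and -0.33. Rps27, of the small subunit, had 4 probe means from -0.90 to -0.77.

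Of the 60 genes with 2 or more kept probes, 40 had probe means within 0.25 of each other, 11 spanned more than 0.5, and 2 (Rpl27a and Rpl15) spanned more than 1. Pairs of probes whose sequences overlapped read almost alike. The 18 pairs of 16 genes that shared 45 or more of their 60 bases differed by a median of 0.04 and at most by 0.20. The 118 pairs of 52 genes that shared fewer than 12 bases differed by a median of 0.18 and at most by 1.35. Probes placed on different chromosomes, or unmapped, occurred in 15 genes. For Rps4x, named for its X-linked locus, the files place the kept probes on chromosomes 3 and 5, and these read -0.33 and -0.31. The Rps4x pair shared 0 bases. For Rpl35, Rpl37a and Rpl38 the probes placed on different chromosomes differed by less than 0.1. Each of these last pairs shared 53 of its 60 bases, so they belong to the near-identical pairs above. The Rps3 probe without a position read -0.52, near the -0.41 and -0.49 of the Rps3 probes on chromosome 7. Others of this kind were Rpl36 with means of -0.11, -0.14 and -0.42, Rpl7 between -0.44 and -0.21, Rpl13 between -0.27 and -0.14, Rpl14 between -0.15 and 0.11, and Rpl28 at 0.15 and 0.07.

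Along a single transcript, the probe nearer the 3′ end tended to give the higher ratio. For 43 member genes, 2 kept probes of 1 RefSeq transcript started at least 60 bases apart. The 3′ probe was higher in 28 of the 43 (65.1%), and the median gap was 0.13. Among 2229 other genes measured in the same way, 1136 were higher at the 3′ probe and the median gap was 0.01. In 24 of the 28 member genes the gap was above 0 on all 8 arrays, a count not made for the other genes. Several member genes with a gap below 0 were likewise below 0 on all 8 arrays. Among these were Rpl8 (-0.53 to -0.28) and Rpl14 (-0.38 to -0.14). This is a description across genes, which are not independent replicates.

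The widest gaps above 0 were those of Rpl27a (1.11), Rpl15 (1.05), Rps6 (0.98) and Rpl22 (0.61). Rps2 had a gap of -0.76, the widest below 0, and its arrays ran from -1.83 to 0.30. Rps6, the target of S6 kinase, had probe means of -0.71, -0.11 and 0.27 in order from 5′ to 3′. Its 5′ probe read -0.54, -0.61, -0.80 and -0.74 in wild-type and -1.09, -0.65, -0.58 and -0.65 in SOD1G93A nerves. Its 3′ probe read 0.10, 0.23, 0.21 and 0.26 in wild-type and 0.51, 0.28, 0.33 and 0.24 in SOD1G93A nerves. The Rps6 probes did not overlap on any array, and SOD1G93A replicate 1 held both extremes. Rpl15, a core large-subunit protein, read -0.91 at the 5′ probe and 0.14 at the 3′ probe. Rpl22, which binds RNA and has a close paralog, read -0.35 and 0.26.

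SOD1G93A replicate 1 had the widest gap over the 43 genes, with a median of 0.24, where the other 7 arrays had medians from 0.11 to 0.18. Its members also departed most from their means over the arrays, with an SD of 0.19 where the other arrays had 0.09 to 0.13. Without it the median gap was 0.12. The part of RNA quality in this was not tested.

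**Figure D3:**
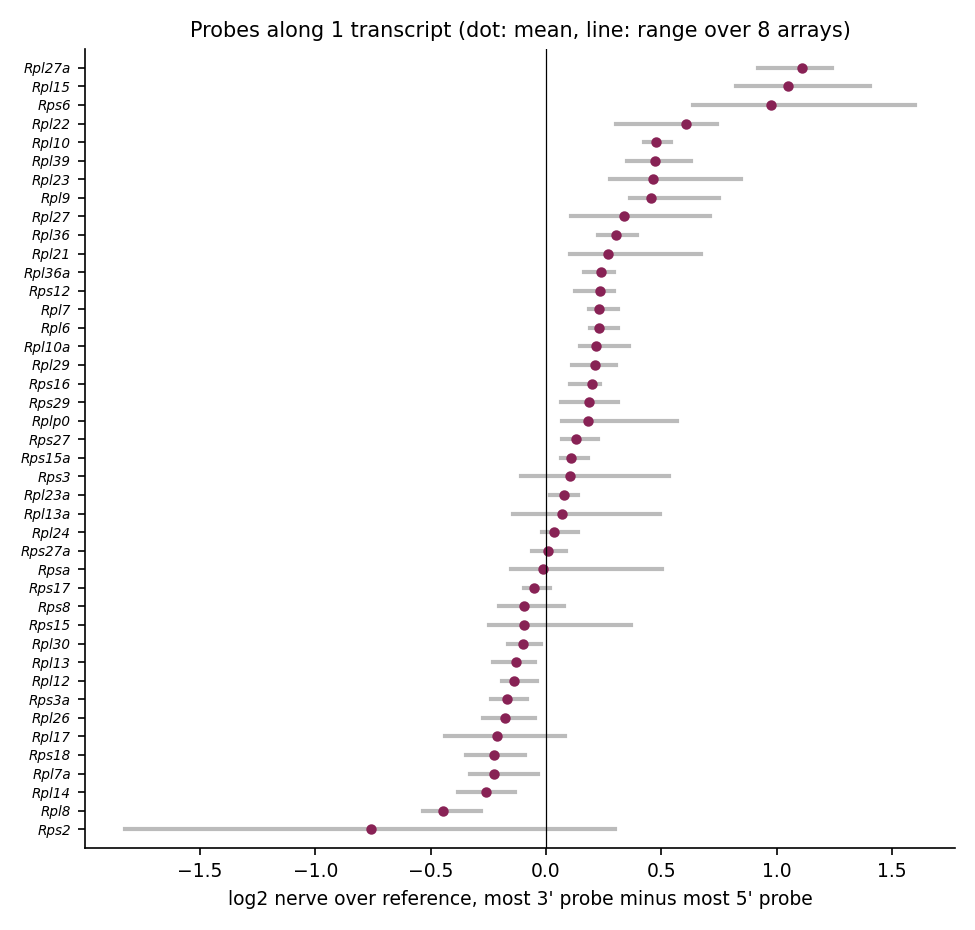
Log2 ratio of nerve over reference at the most 3′ kept probe minus that at the most 5′ kept probe of 1 transcript (x axis) for 42 of the 43 ribosomal protein genes (y axis). Dots are means over 8 arrays and lines run from the lowest to the highest array, and 27 of the genes drawn lie above 0.

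Member probes that end in a run of at least 5 A numbered 19 of 17 genes. Whether such a run comes from a poly(A) tail or lies inside the transcript was not tested. Their median was -0.14, and that of the other 157 was -0.33. Over all kept probes the order was the reverse, with medians of 0.035 with such an end and 0.096 without. Such ends made up 10.8% of members and 2.09% of all kept probes. The share of G and C in the probe had a Pearson r of -0.01 with the ratio across the 176 members, a description without a test.

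No ribosomal protein probe differed between genotypes at an adjusted p under 0.05 (limma, Benjamini-Hochberg over all 19838 kept probes), where 34 probes of the array did (0.171%). At an unadjusted p under 0.05 there were 6 members, against 10.9% of all kept probes. The groups of 9 members did not overlap, against 7.54% of all, of which 8 were higher in SOD1G93A nerve, against 3.45% of all, and 1 was lower, against 4.09%. The median difference of the 176 probes was 0.05, and that over all kept probes was -0.02. A difference above 0 was found at 132 members, against 45.4% of all. The 95% interval of the difference lay within 0.5 of 0 for 166 of the 176 members, against 74.4% of all.

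The common shift was about the size of the spread between single animals. The SD of the array medians within a genotype was 0.05, the same size as the median difference. That SD describes single arrays and is not the standard error of a difference between groups, and the common shift had no test. Without wild-type replicate 3 the median difference was 0.02, with 105 members above 0. Without SOD1G93A replicate 3 it was 0.03, with 117 above 0. Leaving out any other single array gave 0.04 to 0.05, with 123 to 141 members above 0. With array weights, which count arrays of larger residuals less, 466 probes and 1 member (Rpl13a) passed. Each genotype filled a single row of the slide, so that row and genotype cannot be told apart.

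**Figure D4:**
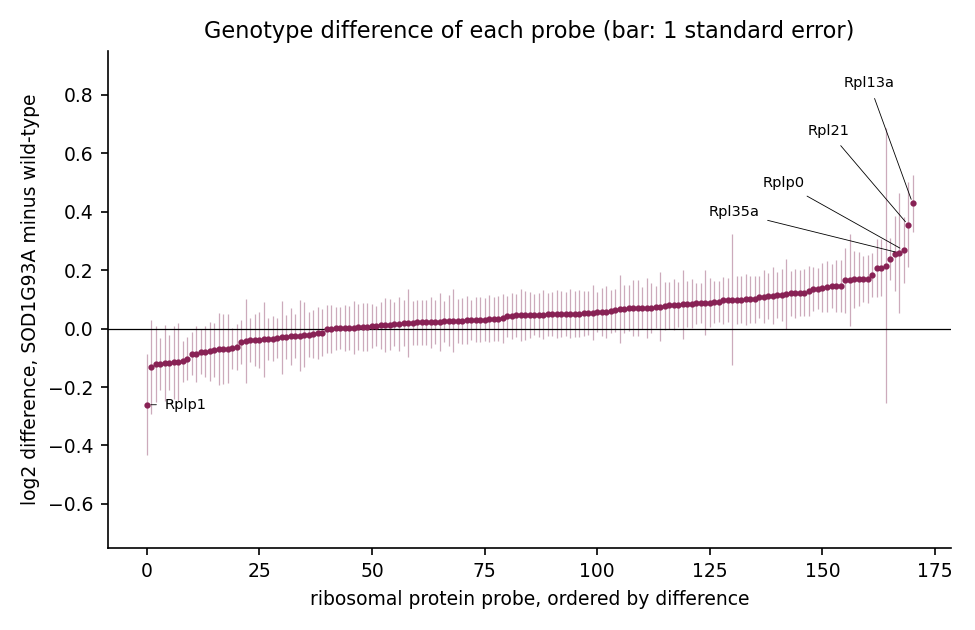
Log2 difference, SOD1G93A minus wild-type (y axis), of 171 of the 176 kept ribosomal protein probes in order of size (x axis). Bars are 1 standard error of the limma fit (n = 4 per group). The differences drawn run from -0.26 (Rplp1, at its chromosome X probe) to 0.43 (Rpl13a, at A_55_P2052613).

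The member with the smallest p was Rpl13a, a large-subunit protein that is also known to silence messages after interferon. Its probe A_55_P2052613 read -0.85, -0.87, -0.94 and -0.68 in wild-type and -0.53, -0.48, -0.42 and -0.20 in SOD1G93A nerves. The groups did not overlap. The difference was 0.43 ± 0.10 (SE; 95% interval 0.21 to 0.65), with a limma adjusted p = 0.153. The gene's other probes had smaller differences, of 0.17 (adjusted p = 0.542) and 0.12 (adjusted p = 0.608).

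The Rpl13a probe A_55_P2101910, at 0.12, has nearly the same sequence as the probe at 0.43. The 30-base stretches below hold, in capitals, the bases that differ inside the stretch common to both. They are shown because the probes read differently.
A_55_P2052613: caccacctgcTtgagttttattaaagtgca
A_55_P2101910: caccacctgcAtgagTttttattaaagtgc
Counted from 1 at the 5′ end of A_55_P2052613, the substitution is T27A, and the other probe has 1 further T in the run that follows. They share 53 of their 60 bases in all. Unshared bases at the probe ends are not shown, and which difference goes with the readings was not tested. A_55_P2101910 read -0.52, -0.60, -0.65 and -0.64 in wild-type and -0.54, -0.52, -0.53 and -0.33 in SOD1G93A nerves, and its groups overlapped. The files place it at chr7:52381146-52381205 (mm9, minus strand), and give A_55_P2052613 a partial match at chr7:52380920-52380948. Among the 18 near-identical pairs the median gap in genotype difference was 0.02, and that of this pair was 0.31.

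Other members of small p were higher in SOD1G93A nerve by less. Rpl14, of the large subunit, read -0.33, -0.20, -0.25 and -0.29 in wild-type and 0.01, 0.02, -0.07 and -0.08 in SOD1G93A nerves at A_51_P232858, without overlap. The Rpl14 difference was 0.24 ± 0.07 (SE; limma adjusted p = 0.284). The other Rpl14 probes differed by 0.15 and 0.17. Rpl23, another Mdm2-binding protein, differed by 0.18 at a probe spotted 10 times (limma adjusted p = 0.423), without overlap, and the other Rpl23 probes differed by -0.040 and 0.030. The SD of those 10 spots within an array had a median of 0.07. Rpl21, of the large subunit, differed by 0.35 at A_52_P653937 (limma adjusted p = 0.417), with overlap, and the other Rpl21 probes differed by 0.066 and 0.075. A_52_P653937 was dim in nerve, with a normalised log2 Cy3 signal of 6.7 to 7.4.

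Lower in SOD1G93A nerve were 44 members, none past the threshold. Among them were Rps16 (-0.11, adjusted p = 0.592), Rplp1 at its chromosome X probe (-0.26, adjusted p = 0.610) and Rpl6 (-0.10, adjusted p = 0.643), all from limma. The Rps16 groups did not overlap. At its chromosome 9 probe Rplp1 differed the other way, by 0.10 (limma adjusted p = 0.705).

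A few probes differed between animals far more than the rest. The SD over the 8 arrays had a median of 0.09 among members and 0.17 among all kept probes, which are dimmer. It was 0.77 for the Rps2 probe A_55_P2070347, 0.36 for Rps27l, 0.35 for Rpl35a, 0.30 for Rplp1 and 0.28 for Rpl21. These 5 were picked for that spread, and the Rpl21 probe, A_52_P653937, was by far the dimmest of them in nerve. In each, the nerve dye varied and the reference dye did not follow. For Rps2 the SD of normalised log2 signal was 0.78 in Cy3 and 0.07 in Cy5. Over all members the median SD was 0.11 in Cy3 and 0.07 in Cy5.

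Rps2, a small-subunit protein at the entry of the messenger RNA channel, had 2 kept probes. They are shown because the files put them at different places on chromosome 17, A_55_P2048454 at chr17:24857583-24857642 and A_55_P2070347 at chr17:42864841-42864900 (mm9, both on the plus strand).
A_55_P2048454: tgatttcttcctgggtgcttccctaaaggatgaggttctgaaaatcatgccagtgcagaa
A_55_P2070347: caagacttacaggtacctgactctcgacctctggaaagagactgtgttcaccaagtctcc
A_55_P2070347 read -0.31, 0.19, -1.62 and -1.64 in wild-type and -0.64, -1.56, 0.16 and -0.48 in SOD1G93A nerves. Wild-type replicates 3 and 4 and SOD1G93A replicate 2 were more than 0.9 below every other array, and both genotypes held high and low animals. The difference was 0.21 ± 0.47 (SE; limma adjusted p = 0.892). A_55_P2048454 read 0.14, -0.11, 0.10 and 0.19 in wild-type and -0.34, 0.25, -0.11 and 0.04 in SOD1G93A nerves, and the 3 arrays low for the first probe were not low here.

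**Figure D5:**
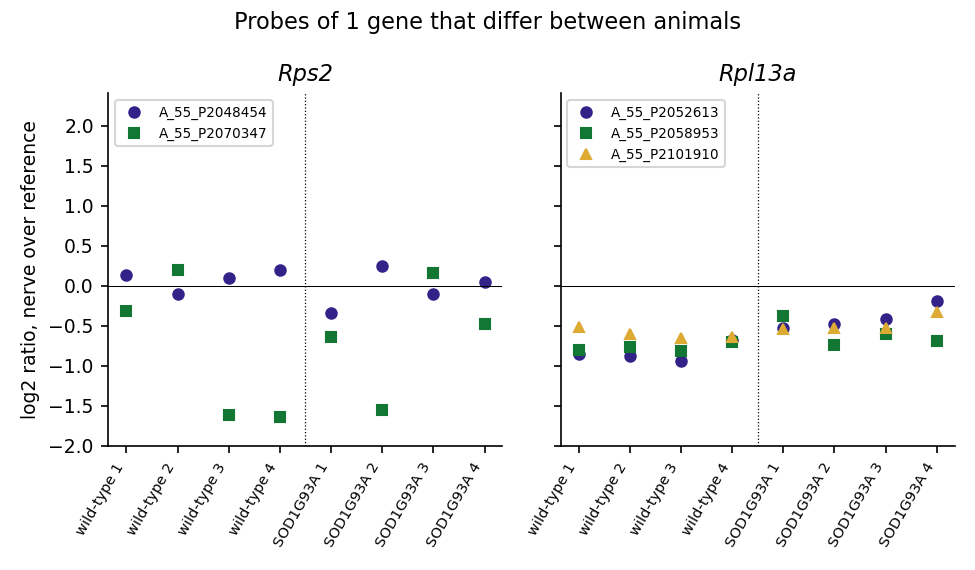
Log2 ratio of nerve over reference (y axis) on each of the 8 arrays (x axis, wild-type left of the dotted line) for every kept probe of Rps2 and Rpl13a. The Rps2 probe A_55_P2070347 runs from -1.64 to 0.19, the other Rps2 probe stays between -0.34 and 0.25, and the Rpl13a probe A_55_P2052613 runs from -0.94 to -0.20.

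Rps27l, a paralog of Rps27 that p53 is known to induce, read -0.51, -0.64, -0.29 and -0.29 in wild-type and -1.09, 0.01, -0.18 and -0.07 in SOD1G93A nerves. SOD1G93A replicate 1 was lowest, and the other SOD1G93A arrays were above all wild-type arrays. The Rps27l difference was 0.10 ± 0.22 (SE; limma adjusted p = 0.895). The 4 Rps27 probes differed between genotypes by -0.03 to 0.10. Rpl35a, of the large subunit, was lowest on wild-type replicate 3, at -1.27, and between -0.72 and -0.21 elsewhere.

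The 3 tissue-restricted paralogs were at or near background in nerve. Rpl3l replaces Rpl3 in striated muscle, and Rpl10l and Rpl39l are known from the testis. Both Rpl10l probes and the Rpl39l probe were not well above background in nerve on any array, and no fold can be given. Rpl3l was well above background in nerve on wild-type replicate 1 alone, and in the reference on all 8 arrays. The coding probes of Rpl3 and Rpl3l, set against each other, overlap in 27 bases, of which 20 are identical (capitals). Whether either probe also binds the other gene's message was not tested.
Rpl3 (A_55_P2030802): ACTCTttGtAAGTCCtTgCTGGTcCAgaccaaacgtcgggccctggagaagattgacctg
Rpl3l (A_51_P243123): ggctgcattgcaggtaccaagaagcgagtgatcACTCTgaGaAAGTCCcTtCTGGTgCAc
The normalised Cy3 signal of Rpl3l was 138, 93.7, 77.1 and 78.3 in wild-type and 84.4, 63.9, 74.3 and 87.2 in SOD1G93A nerves. Rpl3 at A_55_P2030802 read 0.47, 0.27, 0.35 and 0.28 in wild-type and 0.31, 0.27, 0.36 and 0.34 in SOD1G93A nerves, highest on the same wild-type replicate 1. The Rpl3 difference was -0.02 ± 0.08 (SE; limma adjusted p = 0.940), and that of the Rpl3 probe on chromosome 5 was 0.14 ± 0.07 (limma adjusted p = 0.522).

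Muscle markers stood highest on wild-type replicates 1 and 2. The Cy3 signal summed over 10 skeletal muscle genes was 53345 and 18929 on wild-type replicates 1 and 2, and between 1459 and 1926 on the other 6 arrays, where 6 to 8 of the 10 genes were well above background. Their part in the Rpl3l reading was not tested. The 8 adipocyte genes summed to between 77891 and 279070 in wild-type and between 33981 and 117660 in SOD1G93A nerves, and 8 macrophage genes to between 7658 and 9606 and between 6744 and 14527. All 7 Schwann cell genes were well above background on every array, with sums of 236400 to 351560 and 284900 to 402950. Their part in the member differences was not tested.

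Other member probes were also too dim in nerve to be kept. Single probes of Rpl6, Rps15a and Rps27a were well above background in nerve on no array, and one of Rps25 was on 2 of the 8 arrays. The Rpsa probe A_52_P372165 was not well above background in nerve on any array and was well above it in the reference on all 8. Nerve was counted at no less than the lowest signal well above background on each array. On the mean over wild-type arrays the reference signal was then at least 1.02-fold that of nerve. This did not hold on every array: on wild-type replicate 4 the reference read 96.1 and that lowest nerve signal was 107. Against SOD1G93A nerve no fold can be given. Each of these genes has other probes among the 176.

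Around the members, lists of related genes held no called probe either. These had 100 kept probes of 76 mitochondrial ribosomal protein genes, 51 of translation initiation factors and 13 of elongation factors. They also had 70 of ribosome biogenesis factors, 16 of RNA polymerase I and 36 of growth signalling genes. Of these probes 0 were called in either direction. Over the array 0.171% of kept probes were called, a share at which lists of this size would hold few calls or none. The medians of their differences lay between -0.03 and 0.02. The smallest adjusted p in these lists was 0.130, for Eif3k, a subunit of initiation factor 3. Eif3k had a mean of 0.27 ± 0.26 in wild-type and -0.43 ± 0.23 in SOD1G93A nerves (SD, n = 4 each). Without SOD1G93A replicate 1 the Eif3k difference was -0.82 and was called (limma adjusted p = 0.032). Bysl, which matures the small subunit, differed by 0.31 (limma adjusted p = 0.234), and Mrpl9, of the mitochondrial ribosome, by -0.37 (limma adjusted p = 0.274). In polymerase I the smallest p belonged to Cd3eap (0.15, limma adjusted p = 0.538).

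In nerve over reference the medians of the same lists lay between -0.29 and -0.05, and some of their probes lay far from these medians. Mitochondrial ribosomal proteins had a median of -0.29, with Mrps6 highest at 1.67 and Mrps9 lowest at -1.21. Ribosome biogenesis factors had a median of -0.16 and ran from Npm1, the nucleolar chaperone, at -1.33 to Sbds, which frees the large subunit for joining, at 1.74. Initiation factors had a median of -0.08, with Eif1, which scans for start codons, at 1.77 and Eif3e at -1.05. Elongation factors had a median of -0.05, with Eef1d at 1.05 and Eef1b2 at -0.69. RNA polymerase I had a median of -0.21, with its factor Taf1d at -1.70. Growth signalling genes had a median of -0.14, with Deptor, a partner of mTOR, at 2.46 and Eif4ebp1, the repressor that mTOR phosphorylates, at -1.52.

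Messages that share the 5′ tract but encode no ribosomal protein of the rule (37 kept probes of 20 genes) had a median of -0.40 and a median difference of -0.03. In this list Vim, an intermediate filament gene, was highest at 2.08. Fau, whose fusion yields a small-subunit protein, had a mean of 0.05. Gnb2l1, the ribosomal scaffold now called Rack1, had a mean of -0.99. Of the relatives outside the rule, Rpl22l1, the paralog of Rpl22, had a mean of -0.92 and Rps19bp1, a binding partner of Rps19, differed by 0.23 (limma adjusted p = 0.395).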

How the data were processed

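Per the file headers, the authors' scanner files give the linear intensity of each spot in both dyes, as written by Agilent Feature Extraction 11.5.1.1 with probe positions on mm9. Version 11.0.1.1 and limma, with no role, stand in the submitters' processing notes. The authors' series table is in log10 (Cy5 over Cy3), equal to the scanner files' own log ratio with a largest difference of 0, and each of its columns has a median of 0. The remaining deposited columns used are flags.

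Mean spot intensity with the median local background was corrected by normexp (offset 50) and loess within arrays with limma 3.58.1 in R 4.3.3 (with the package data.table, version 1.17.8), with control spots at weight 0, flagged outlier spots left out, spots of a probe averaged and no scaling between arrays. Well above background were 35.5% to 41.7% of spots in Cy3, and 0 spots were saturated. Probes above background in Cy3 on at least 4 arrays were kept. Genotypes were compared with lmFit and eBayes, in 2-sided tests, and a probe was called where its p, adjusted by Benjamini and Hochberg's method, was under 0.05. Bounds and channel signals used Aquantile normalization. The fit was tested on simulated data.

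Members, lists and tests were chosen with earlier results of these data known. Named are the 5 highest and 5 lowest members in nerve over reference, the 4 of smallest p per direction, every probe of genes whose probes lie on different chromosomes or differ by over 1, and every probe of a set of genes of known role. From each related list the rule takes the 2 of smallest p and both extremes in nerve over reference. Others were chosen after their values were seen, and a few genes that the rule names are not reported here. Alternatives were other signals, normalizations, filters, fits and arrays. The labels call the 4 samples of a group biological replicates, and their number limits the precision.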

Additional observations from a re-analysis of the deposited data

Results flagged for a closer look

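A sample that stood apart from the other 3 of its group was looked for in 160 groups of 4 values and found in 21. For independent groups chance gives about 1 in 20. These groups come from the same arrays and some hold probes of 1 gene, so no excess over chance can be read from the count. SOD1G93A replicate 1 accounted for 13 of the 21. It was the lowest of its group for Rps19 (-1.42, others -1.14 to -1.09), Rpl15 at A_55_P1990457 (-1.34, others -0.82 to -0.73), Rps27l (-1.09, others -0.18 to 0.01), Rps6 at A_55_P1955239 (-1.09, others -0.65 to -0.58), Rpl27a at A_55_P2048671 (-0.39) and Rplp2 (-0.15). It was the highest for Rpl14 at A_55_P2137461 (0.33), Rpl38 at A_55_P1955059 (0.34), Rpl13 at A_55_P2009588 and A_55_P2011235 (0.0939 and 0.0879), Rpl11 at A_55_P2010341 (-0.14) and Rps27a at A_55_P1976108 (-0.98). The Schwann cell genes summed to 403000 in Cy3 on the same array, where the other SOD1G93A arrays had 284900 to 297300.

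Other SOD1G93A arrays stood apart for single probes. Replicate 2 was lowest for Rpl27a at A_51_P132459 (0.94, others 1.02 to 1.04) and for Rpl28 at A_55_P1985359 (0.0297, others 0.20 to 0.23). Replicate 3 was highest for Rpl15 at A_66_P140976 (0.29, others 0.07 to 0.09) and for Rpl27a at A_55_P2065327 (-0.13). Replicate 4 was lowest for Rpl22 at A_55_P2015989 (-0.40).

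In the wild-type group, replicate 3 was lowest for the median of all members (-0.41, others -0.31 to -0.29) and for Rps3 at A_51_P318640 (-0.66, others -0.46 to -0.43), and replicate 4 was highest for Rpl11 at A_55_P1967076 (-0.23).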

How the results depend on the processing

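No ribosomal protein probe passed the genotype test under any alternative except array weights, where 1 did (Rpl13a, difference 0.48, limma adjusted p = 0.028, against 0.071 to 0.394 without 1 array). In the related lists Bysl passed with array weights, and Eif3k passed with array weights, on the 6 arrays numbered 2 to 4 and without SOD1G93A replicate 1. The probes called over the array numbered 34, and 14 with Agilent's processed signals, 14 with the series table, 2 with median centring, 20 with scaling between arrays, 466 with array weights, 260 on the 6 arrays numbered 2 to 4, and 6 (without wild-type replicate 3, or without replicate 4 of SOD1G93A) to 197 (without SOD1G93A replicate 1) when 1 array was left out. Same-numbered arrays deviated together with correlations of -0.17 to 0.09, so the numbers were not taken to pair animals. A replicate block left 2 probes called and 0 members. Members whose groups did not overlap numbered 9 (5.11%, where 7.54% of all probes did not overlap), and 20 with Cy3 alone (11.4%, above the 8.08% of all), 1 with median centring (0.568%, against 2.4%), 5 of 77 with 1 probe per gene (6.49%, against 8%), 34 on the 6 arrays numbered 2 to 4 (where 23.1% of all probes did not overlap), and 12 to 27 without 1 array (9.61% to 15.9% of all). The member median in nerve over reference was -0.19 with Agilent's processed signals and with the series table, and -0.67 with median centring, where 33 members were at -1 or less. Fewer arrays separate more groups by construction, and for the other changes the cause was not tested. Differences near 0 changed sign. That of Rpl3 at A_55_P2030802 was 0.00015 with median centring, 0.0024 with array weights, 0.0266 on the 6 arrays and -0.0440 to 0.0229 without 1 array. Rpl3 at A_55_P2025023 was -0.0859 and Rps2 at A_55_P2048454 was 0.0010 with Cy3 alone. Rps2 at A_55_P2070347 ran from -0.0494 to 0.56 without 1 array, below 0 when wild-type replicate 3 or 4, or replicate 3 of SOD1G93A, was left out. The alternatives for the gap along a transcript were chosen after seeing the data, and gave 0.12 to 0.14 against 0.13. Signal over background limits the 10 member probes not kept.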
